A study of Homo sapiens with 12 samples.

Results

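Protein tyrosine phosphatases remove phosphate from tyrosine, and 7 of their genes with known roles in lymphocytes are described here: PTPRC, PTPN6, PTPN11, PTPN22, PTPN1, PTPN2 and PTPN7. They were found by gene symbol, and each of the 7 matched 1 row of a table of 60671 genes. RNA had been sequenced from 12 libraries labelled Jurkat, a line from a human T cell leukemia, with 3 libraries in each of 4 groups. The cells were controls (NC) or overexpressed PTPN21, and each kind was kept for 48 h with vincristine (VCR), a drug that binds tubulin, or with its solvent DMSO. The labels call the NC cells WT, whereas the methods of the study describe NC cells with a GFP vector and PTPN21 cells with FLAG-tagged PTPN21, both delivered by lentivirus under the SFFV promoter. A dose of VCR is stated for other assays of the study, but none is given for these libraries. The labels do not say whether the 3 libraries of a group came from separate cultures, so the p-values measure the spread between these libraries, which may be technical.

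In T cells these enzymes set how strongly the antigen receptor and the cytokine receptors signal. PTPRC, known as CD45, spans the membrane and takes the inhibitory phosphate off the kinase LCK, whereas PTPN22 removes the activating phosphate from LCK and ZAP70 and works with the kinase CSK. PTPN6 (SHP-1) and PTPN11 (SHP-2) carry SH2 domains that dock on phosphorylated receptors and adaptors, PTPN6 mostly to dampen signals and PTPN11 mostly to sustain signalling through RAS. PTPN1 (PTP1B) and PTPN2 (TC-PTP) are close relatives that act on JAK kinases, STAT factors and the insulin receptor, and PTPN7 (HePTP) acts on MAP kinases such as p38.

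Values are FPKM, which scale the fragments of a gene by its length and by the total of the library, so levels can be set side by side between genes of a library, while comparisons between libraries also depend on the scaling. Tests used limma on log2(FPKM + 1) over 11591 genes whose FPKM averaged at least 1 over the 12 libraries, with an adjusted p (Benjamini-Hochberg over all genes tested) under 0.05 called a change. Of the 7 phosphatases, 6 passed the minimum, and PTPN22 did not. The scale understates changes of genes with low FPKM.

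The libraries went against their T cell label. Of 10 T cell line markers, 2 or 3 had a mean FPKM of at least 1 in each group, and the summed level of the list, from 64.0 in the lowest NC+DMSO library to 145.1 in the highest PTPN21+DMSO library, was carried by CD3D, a subunit of the antigen receptor complex, at 61.8 to 139.7. The kinase LCK, the receptor CD28 and the receptor chain CD247 were listed at 0 in 12 of 12 libraries, CD2 in 11 and CD3E in 9. Genes that cells use in general were present, with ACTB at 118.3 to 323.4 and GAPDH at 579.9 to 1412. The fetal globin gene HBG2 stood at 559.7 to 2985, its neighbour HBG1 at 187.8 to 709.1, and the blood cell factor GATA1 at 13.5 to 106.5, genes that were chosen after their values were seen. GATA1 was lower with VCR, at 13.5 to 25.3 FPKM in the 6 VCR libraries against 57.4 to 106.5 in the 6 DMSO libraries, and the part of this in the results below was not tested. B cell markers summed to at most 1.84 FPKM and fibroblast markers to at most 0.0944. The myeloid list summed to 10.1 to 20.4 through LYZ and ITGAM, with CD14 at 0 in 11 libraries, and the epithelial list to 60.2 to 122.8 through EPCAM, with KRT5 at 0 in 12. PTPRC itself, which marks blood cells, was present in every library.

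PTPN21 separated the groups as labelled, with 0.0212 to 0.569 FPKM in the NC libraries and 4.34 to 10.5 in the PTPN21 libraries. Depth is not given by FPKM. The steps in the low values of 8702 single-exon genes put the PTPN21 libraries at 20560000 to 23900000 fragments, and the NC libraries at 28820000 to 35660000 or, with a step of the other size, at 14500000 to 17940000, so depth and construct varied together and their parts cannot be told apart. For the PTPN21 libraries a step of the other size would give depths above the range scanned, so no such alternative is given. The mitochondrially encoded share of all FPKM was 11.4% to 11.7% in NC+DMSO, 9.27% to 9.99% in PTPN21+DMSO and 6.21% to 7.89% with VCR. Replicate 3 of NC+DMSO stood apart, with a median FPKM over the tested genes of 8.64 against 5.27 to 7.41 in the other libraries. Over all tested genes the median log2 fold change with VCR was -0.36 in NC cells and -0.17 in PTPN21 cells, and that of PTPN21+DMSO against NC+DMSO was -0.14. Scaling by the median ratio brought these medians to -0.03, -0.02 and 0.03. It also moved the split of calls with VCR in NC cells from 917 higher and 3275 lower to 1729 and 1328, that in PTPN21 cells from 1069 and 2239 to 1535 and 1460, and that of PTPN21+DMSO against NC+DMSO from 307 and 428 to 417 and 129. The fold changes below are not corrected for these medians.

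The DNA before the start sites of 4 of the genes is shown because PTPRC and PTPN1 fell together with PTPN21 overexpression, and PTPN6 and PTPN7 fell together with VCR. Each line gives the 250 bases upstream of a RefSeq start in GRCh38.p14, 5′ to 3′ on the strand of the gene. For PTPN6 and PTPN7 it is the start followed by bases that occur in the most GENCODE 29 transcripts, 10 and 15 of them. Those transcripts need not begin at that start. Capitals mark GGGCGG, the core of a GC box that SP1 factors bind, and AGGAAG, which holds the GGAA core of ETS factor sites, each on either strand. RefSeq starts were found for 6 of the 7 genes, the exception being PTPN11.
PTPRC, chr1:198638790-198639039, plus strand: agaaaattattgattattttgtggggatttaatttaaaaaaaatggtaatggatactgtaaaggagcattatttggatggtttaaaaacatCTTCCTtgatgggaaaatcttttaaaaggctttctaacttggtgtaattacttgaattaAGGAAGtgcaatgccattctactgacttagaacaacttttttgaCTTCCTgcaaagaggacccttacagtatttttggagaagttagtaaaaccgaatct
PTPN1, chr20:50510133-50510382, plus strand: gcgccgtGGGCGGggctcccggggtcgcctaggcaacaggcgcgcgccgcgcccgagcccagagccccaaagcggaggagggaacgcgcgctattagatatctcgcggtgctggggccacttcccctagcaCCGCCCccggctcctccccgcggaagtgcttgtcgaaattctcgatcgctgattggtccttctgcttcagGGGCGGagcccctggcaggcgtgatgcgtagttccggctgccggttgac
PTPN6, chr12:6951106-6951355, plus strand: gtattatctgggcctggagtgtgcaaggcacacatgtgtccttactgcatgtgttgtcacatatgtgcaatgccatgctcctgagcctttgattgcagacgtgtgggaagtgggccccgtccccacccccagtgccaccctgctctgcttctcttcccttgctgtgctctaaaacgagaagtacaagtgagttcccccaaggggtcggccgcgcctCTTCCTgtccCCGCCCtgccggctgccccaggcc
PTPN7, chr1:202159455-202159704, minus strand: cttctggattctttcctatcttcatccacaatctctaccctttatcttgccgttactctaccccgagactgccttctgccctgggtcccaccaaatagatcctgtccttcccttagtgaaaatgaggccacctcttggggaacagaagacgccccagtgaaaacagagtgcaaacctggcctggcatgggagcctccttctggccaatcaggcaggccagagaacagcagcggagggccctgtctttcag

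The windows were unlike each other. That of PTPRC held 3 AGGAAG and no GGGCGG at 31.2% G and C, and that of PTPN1 held 3 GGGCGG and no AGGAAG at 69.2%. The PTPN6 window held 1 of each motif at 59.6%, and the PTPN7 window held neither at 54.0%. GGGCGG occurred in 42.6% and AGGAAG in 28.7% of 35116 such windows, whose median content of G and C was 58.0%. PTPN7 has another listed start, followed by bases that occur in 14 transcripts. Its window (chr1:202160603-202160852, minus strand) held 1 GGGCGG and 2 AGGAAG at 66.8%. A further PTPN7 window (chr1:202159990-202160239, minus strand), whose start is followed by bases found in 1 transcript, held 1 AGGAAG and no GGGCGG at 63.6%. The other PTPN6 window (chr12:6946327-6946576, plus strand) held 2 GGGCGG and 1 AGGAAG at 66.4%. Both motifs occurred together in 10.9% of the 35116 windows, and whether PTPN7 held both depended on the start chosen. A match of letters is a description and no site.

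PTPN2 had the highest mean of the 7 genes in every group, from 63.6 to 83.3 FPKM, and its libraries lay above those of every other gene. PTPRC came next in each group, with 11.9 to 31.4 FPKM. With VCR it stood apart from the gene below it, PTPN11, whereas its range overlapped that of PTPN11 in NC+DMSO and that of PTPN7 in PTPN21+DMSO. The middle of the order differed between groups. In NC+DMSO it ran PTPN11 (20.4), PTPN1 (17.0), PTPN7 (13.8) and PTPN6 (7.70), with overlapping neighbours down to PTPN7. In PTPN21+DMSO it ran PTPN7 (11.6), PTPN1 (7.0), PTPN11 (6.62) and PTPN6 (6.14), the last 3 overlapping. In both VCR groups it ran PTPN11, PTPN1, PTPN7 and PTPN6, from 14.4 to 3.23 FPKM in NC+VCR, where no neighbours overlapped, and from 11.4 to 2.53 in PTPN21+VCR, where PTPN11 and PTPN1 did. PTPN22 was lowest in each group, at a mean of 0.338 to 0.982 FPKM and apart from the rest.

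**Figure D1:**
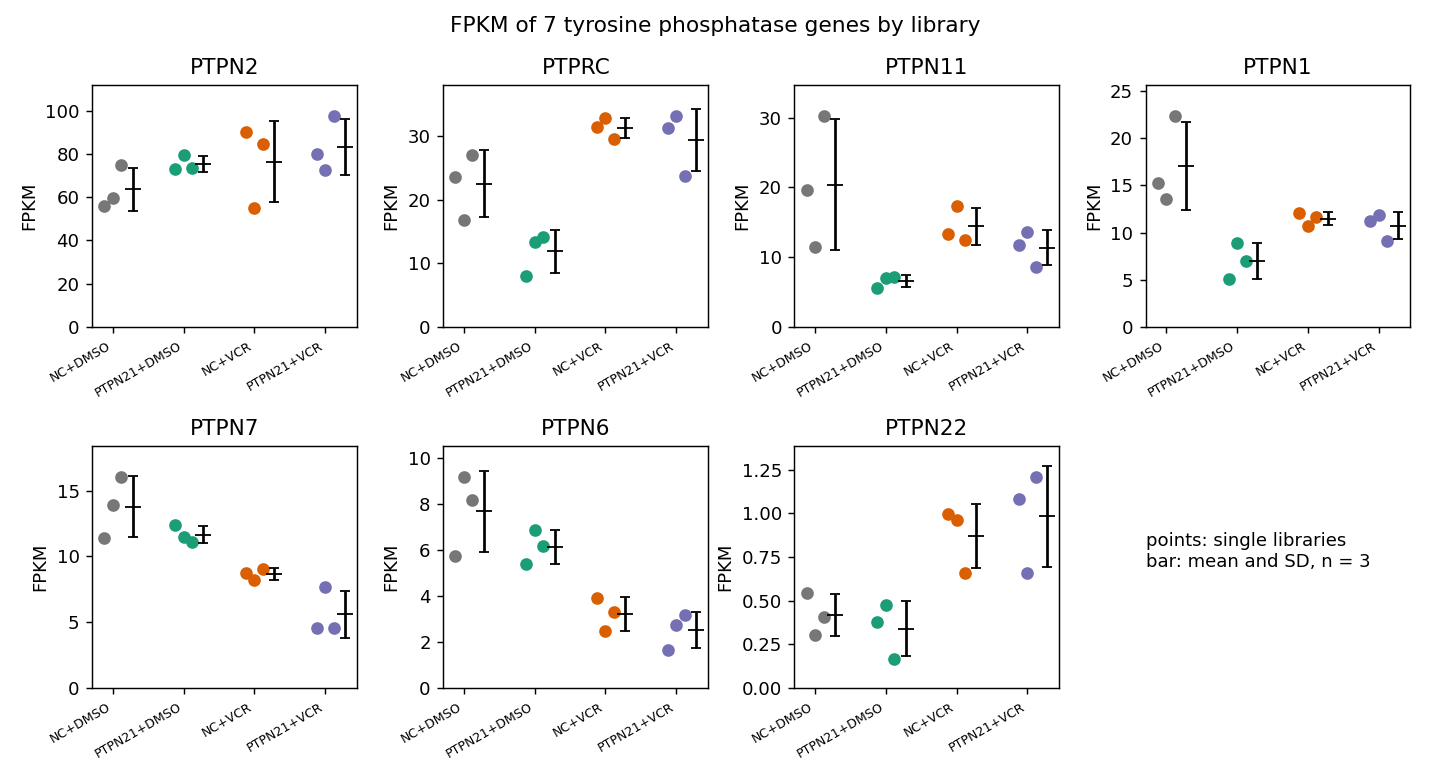
FPKM (vertical axis, from 0, with its own scale in each panel) of the 7 phosphatase genes in the 12 libraries, with points for single libraries and a bar for the mean and SD of each group (n = 3). PTPRC, PTPN1 and PTPN11 dip in the PTPN21+DMSO libraries, whereas PTPN6 and PTPN7 are low in both VCR groups.

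Which of these genes VCR changed in the control cells was asked first. PTPN6 and PTPN7 fell with VCR in NC cells. These were 2 calls among the 6 tested, beside 36.2% of all genes tested (28.3% lower and 7.91% higher). The scaling altered which genes were called there: under median ratio scaling PTPN6 was lower, PTPN2 and PTPRC were higher and PTPN7 was not called, and under quantile normalization PTPRC alone was called, higher. In PTPN21 cells 3 of 6 were called, PTPRC higher and PTPN6 and PTPN7 lower, beside 28.5% of all genes (9.22% higher and 19.3% lower). The median log2 fold change of the 6 was -0.45 in NC cells and 0.35 in PTPN21 cells. Groups did not overlap for 4 of the 6 genes with VCR in NC cells, beside 44.1% of all genes, and for 5 in PTPN21 cells, beside 50.4%. Overexpression of PTPN21 without the drug went with a fall of PTPN11, PTPN1 and PTPRC, 3 calls of 6 beside 6.34% of all genes (3.69% lower), a median of -0.57, and 3 genes without overlap beside 33.4%. Under VCR the PTPN21 and NC cells differed in none of the 6 by limma, beside 1.82% of all genes, while 1 gene, PTPN7, had an unadjusted p under 0.05 and also was the 1 without overlap, beside 22.5%. The comparisons share groups, so their calls are not independent of each other. Without replicate 3 of NC+DMSO, the library that stood apart, the counts were 1 with VCR in NC cells, 5 with VCR in PTPN21 cells and 0 with PTPN21 in DMSO. Calls over all genes then were 3198, 3432 and 137 of 11441, beside 4192, 3308 and 735 of 11591 with every library. The count of the 6 in NC cells also was 1 without replicate 1 or 3 of NC+VCR, beside 3735 of 11637 and 3790 of 11621 of all genes. That with PTPN21 in DMSO was 0 without replicate 1 of PTPN21+DMSO, beside 54 of 11588 genes. It was 1 without replicate 3 of PTPN21+DMSO (186 of 11576 genes) or replicate 1 of NC+DMSO (169 of 11559), and 1 with the replicate block (242 of 11591).

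**Figure D2:**
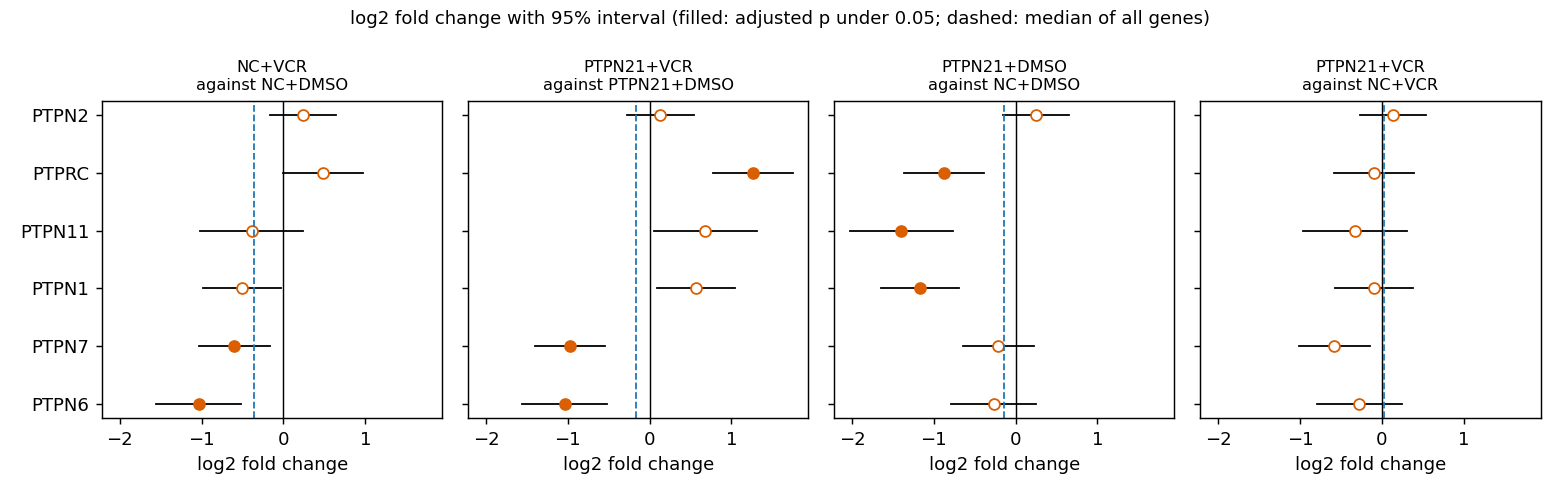
Log2 fold change on the log2(FPKM + 1) scale (horizontal axis) with its 95% interval from limma for the 6 tested phosphatases in 4 comparisons, where filled points have an adjusted p under 0.05 and the dashed line is the median of all tested genes. PTPN6 and PTPN7 lie left of 0 in both VCR panels, and PTPRC, PTPN11 and PTPN1 lie left of 0 in the panel of PTPN21 overexpression without drug.

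PTPRC, the CD45 gene (ENSG00000081237, plus strand of chromosome 1 from 198638457 to 198757476 in GRCh38), was measured as a whole, so its splice forms were not resolved. It stood at 23.7, 16.8 and 27.2 FPKM in the NC+DMSO libraries 1 to 3 and at 8.07, 13.4 and 14.2 in those of PTPN21+DMSO. With VCR it stood at 31.6, 32.9 and 29.7 FPKM in NC cells and at 31.4, 33.1 and 23.8 in PTPN21 cells. Each PTPN21+DMSO library lay below each library of the other groups. The fall with PTPN21 overexpression in DMSO was -0.88 on the log2 scale (standard error 0.225, limma adjusted p = 0.0419), and the rise with VCR in PTPN21 cells was 1.26 (standard error 0.225, limma adjusted p = 0.00161), 2.47 times the mean FPKM without drug. With VCR in NC cells the value was 0.48 (limma adjusted p = 0.111), with no overlap between groups, and this passed the threshold under median ratio scaling (0.87, adjusted p = 0.00726) and quantile normalization (0.75, adjusted p = 0.0202). Under VCR the PTPN21 and NC libraries overlapped, with a difference of -0.10 and a 95% interval from -0.59 to 0.39. The call in DMSO was lost in 6 of 10 other settings, the replicate block among them (adjusted p = 0.0761), and 10 of 12 fits that left out a library, with the highest adjusted p, 0.163, without replicate 1 of PTPN21+DMSO. The call with VCR in PTPN21 cells was kept in all of these.

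PTPN6, the SHP-1 gene (ENSG00000111679, plus strand of chromosome 12 from 6946468 to 6961316), was low with VCR whatever the construct. It measured 5.75, 9.18 and 8.18 FPKM in NC+DMSO and 5.38, 6.86 and 6.18 in PTPN21+DMSO. In NC+VCR it measured 3.93, 2.46 and 3.30 FPKM, and in PTPN21+VCR 1.65, 2.75 and 3.18. All 6 VCR libraries lay below all 6 DMSO libraries. The log2 fold change with VCR was -1.04 in NC cells (standard error 0.240, limma adjusted p = 0.00602) and -1.04 in PTPN21 cells (standard error 0.240, limma adjusted p = 0.00705). The ratios of the mean FPKM were 0.419 and 0.411. The difference between these responses was 0.00 with a 95% interval from -0.74 to 0.73, and overexpression of PTPN21 gave -0.27 in DMSO (limma adjusted p = 0.517) and -0.27 in VCR (limma adjusted p = 0.615). Both calls were kept in each fit that left out a library, and that in NC cells was lost under quantile normalization (-0.63, adjusted p = 0.0724).

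PTPN11, the SHP-2 gene (ENSG00000179295, plus strand of chromosome 12 from 112418351 to 112509913), showed the largest fold of the 7 genes with PTPN21 overexpression in DMSO. Its values were 19.6, 11.4 and 30.2 FPKM in NC+DMSO, the widest spread of the 7 genes in that group relative to the mean, and 5.61, 7.05 and 7.21 in PTPN21+DMSO. They were 13.4, 17.4 and 12.5 FPKM in NC+VCR and 11.8, 13.7 and 8.64 in PTPN21+VCR. Each PTPN21+DMSO library was lower than each of the other 9, and the other 3 groups overlapped. The log2 fold change in DMSO was -1.40 (standard error 0.290, limma adjusted p = 0.0236), a ratio of 0.325 between the mean FPKM. The call was lost without replicate 1 or 3 of either of these groups, at most to an adjusted p of 0.105 without replicate 1 of PTPN21+DMSO, and in 3 of 10 other settings, among them the replicate block (-1.40, adjusted p = 0.0521). With VCR the change was -0.39 in NC cells (limma adjusted p = 0.311) and 0.68 in PTPN21 cells (limma adjusted p = 0.0991), the latter with no overlap and past the threshold under median ratio scaling (0.85, adjusted p = 0.0328) and quantile normalization (0.88, adjusted p = 0.0364). It passed in NC cells without replicate 2 of NC+DMSO (-0.73, adjusted p = 0.0421). PTPN11 shares 111 exon bases with RPL6 on the opposite strand, a ribosomal protein gene at 2095 to 2672 FPKM in the NC+DMSO libraries and 2491 to 3123 in those of PTPN21+DMSO, and at 3576 to 5006 and 2983 to 3760 with VCR. Whether the counting used strand is not given, so reads from the shared bases cannot be told apart.

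PTPN1, the PTP1B gene (ENSG00000196396, plus strand of chromosome 20 from 50510321 to 50585241), was lowest in PTPN21+DMSO, as PTPN11 was. It was listed at 15.3, 13.5 and 22.3 FPKM in NC+DMSO, at 5.12, 8.87 and 7.01 in PTPN21+DMSO, at 12.04, 10.7 and 11.7 in NC+VCR and at 11.2, 11.9 and 9.10 in PTPN21+VCR. The NC+DMSO libraries were the 3 highest and the PTPN21+DMSO libraries the 3 lowest of the 12. The log2 fold change with PTPN21 in DMSO was -1.17 (standard error 0.219, limma adjusted p = 0.0162), a ratio of 0.411 between the mean FPKM. The call was lost without replicate 3 of NC+DMSO (-0.97, adjusted p = 0.0631) or replicate 1 of PTPN21+DMSO (-0.99, adjusted p = 0.0813) and when only the groups compared were fitted (adjusted p = 0.0762). With VCR, PTPN1 was lower in NC cells (-0.50, limma adjusted p = 0.0916) and higher in PTPN21 cells (0.57, limma adjusted p = 0.0699), each without overlap of the groups and neither past the threshold. The value in PTPN21 cells passed under median ratio scaling (0.74, adjusted p = 0.0120), under quantile normalization (0.76, adjusted p = 0.0119), and without replicate 3 of NC+DMSO or replicate 2 of PTPN21+DMSO. The fall in NC cells passed in no setting and was -0.13 under median ratio scaling (limma adjusted p = 0.648).

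PTPN2, the TC-PTP gene (ENSG00000175354, minus strand of chromosome 18 from 12785478 to 12929643), was called in no comparison. Its 3 values ran from 56.2 to 74.8 FPKM in NC+DMSO, from 72.9 to 79.7 in PTPN21+DMSO, from 54.9 to 90.1 in NC+VCR and from 72.5 to 97.4 in PTPN21+VCR. Every pair of groups overlapped. The log2 fold changes with VCR were 0.24 in NC cells, with a 95% interval from -0.16 to 0.65, and 0.13 in PTPN21 cells, with an interval from -0.27 to 0.54. With PTPN21 they were 0.25 in DMSO, with an interval from -0.15 to 0.66, and 0.14 in VCR, with an interval from -0.26 to 0.55. The change in NC cells passed under median ratio scaling (0.64, adjusted p = 0.0172) and without replicate 2 of NC+VCR (0.46, adjusted p = 0.0456). Its pseudogenes PTPN2P1 and PTPN2P2, which may share reads with it, reached at most 1.05 and 0.459 FPKM. Of these close relatives, PTPN1 was called lower with PTPN21 in DMSO and PTPN2 was not, and the difference between the genes was not tested.

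PTPN7, the HePTP gene (ENSG00000143851, minus strand of chromosome 1 from 202147013 to 202161588), was lowest where VCR and PTPN21 were combined. It stood at 11.4, 13.9 and 16.0 FPKM in NC+DMSO and at 12.4, 11.5 and 11.1 in PTPN21+DMSO. With VCR it stood at 8.70, 8.19 and 9.05 FPKM in NC cells and at 4.55, 7.64 and 4.57 in PTPN21 cells. The DMSO groups overlapped, all VCR libraries lay below them, and the PTPN21+VCR libraries were the 3 lowest of the 12. The fall with VCR was -0.60 in NC cells (standard error 0.199, limma adjusted p = 0.0332) and -0.97 in PTPN21 cells (standard error 0.199, limma adjusted p = 0.00364). The latter call was kept in all other settings, whereas the former was lost in 4 of 10 other settings, with median ratio scaling at -0.23 (adjusted p = 0.394), and without replicate 2 or 3 of NC+DMSO or any of the 3 NC+VCR libraries. The difference between PTPN21+VCR and NC+VCR was -0.58 (limma adjusted p = 0.153), with no overlap, and passed in no setting.

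PTPN22 (ENSG00000134242, minus strand of chromosome 1 from 113813811 to 113871759) had the lowest values, with no library above 1.21 FPKM. It stood at 0.541, 0.303 and 0.404 FPKM in NC+DMSO, at 0.376, 0.472 and 0.165 in PTPN21+DMSO, at 0.994, 0.960 and 0.656 in NC+VCR and at 1.08, 0.657 and 1.21 in PTPN21+VCR. All VCR libraries were above all DMSO libraries. In the fit without a minimum the log2 fold change with VCR was 0.40 in NC cells (limma adjusted p = 0.166) and 0.56 in PTPN21 cells (limma adjusted p = 0.0652), and that with PTPN21 was -0.09 in DMSO (limma adjusted p = 0.902). The antisense gene AP4B1-AS1, which overlaps PTPN22 outside its exons, was at 0 in 10 of 12 libraries and at most at 0.714 FPKM. For this gene and the others, fewer cells of a type and less RNA per cell cannot be told apart in bulk libraries.

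Whether PTPN21 overexpression altered the response to VCR was tested by the interaction, the response of PTPN21 cells minus that of NC cells. None of the 6 passed, beside 0.129% of all genes tested. An unadjusted p under 0.05, for which the share of all genes was not counted, was found for 3. These were PTPN1 at 1.08 (limma adjusted p = 0.191), PTPN11 at 1.07 (limma adjusted p = 0.283) and PTPRC at 0.78 (limma adjusted p = 0.310). They are the genes that were low in PTPN21+DMSO, a group that enters the interaction, so the one result is not independent of the other. In the VCR groups the same genes differed between the constructs by -0.09, -0.32 and -0.10, none called. PTPN7 gave -0.37, PTPN2 -0.11 and PTPN6 0.00 in the interaction, with adjusted p of at least 0.565 in limma.

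Among the 37 classical tyrosine phosphatase genes, 18 had a mean FPKM of at least 1, 6 of the 7 described here and 12 of the other 30. By the mean over the 12 libraries PTPN2 (74.7) ranked 1, PTPN18 (31.6) 2 and PTPRC (23.8) 3, while PTPN11, PTPN1, PTPN7 and PTPN6 ranked 6, 7, 8 and 10 and PTPN22 ranked 19. The 7 genes together made up 56.4% ± 4.87 of the summed FPKM of the family in NC+DMSO and 56.6% ± 1.51 in PTPN21+DMSO. With VCR they made up 68.4% ± 2.72 in NC cells and 68.1% ± 1.11 in PTPN21 cells (mean ± SD, n = 3). The sum includes the overexpressed PTPN21, and it averaged 260.1 and 210.1 FPKM with DMSO and 213.9 and 211.3 FPKM with VCR, NC cells first. With PTPN21 left out of the sum, a choice made after seeing the data, the 7 genes made up 56.4% ± 4.88 and 59.1% ± 1.85 with DMSO and 68.5% ± 2.78 and 70.03% ± 1.04 with VCR, in NC and PTPN21 cells in turn. With PTPN21 in the sum, the DMSO libraries did not reach the VCR libraries, with 62.0% as the highest of the former and 66.3% as the lowest of the latter. A share is relative to the sum, which averaged 260.1 FPKM in NC+DMSO and 213.9 in NC+VCR. A larger share therefore does not show a rise of the 7 genes. The share of PTPRC was 8.80% and 5.63% with DMSO and 14.8% and 13.97% with VCR, in NC and PTPN21 cells in turn, and that of PTPN2 was 24.8% and 35.9% with DMSO and 35.4% and 39.3% with VCR. PTPN6 and PTPN7 took smaller shares with VCR. PTPN18, outside the 7 genes, fell with VCR by 1.73 on the log2 scale in NC cells (limma adjusted p = 0.00186) and by 1.25 in PTPN21 cells (limma adjusted p = 0.0133).

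**Figure D3:**
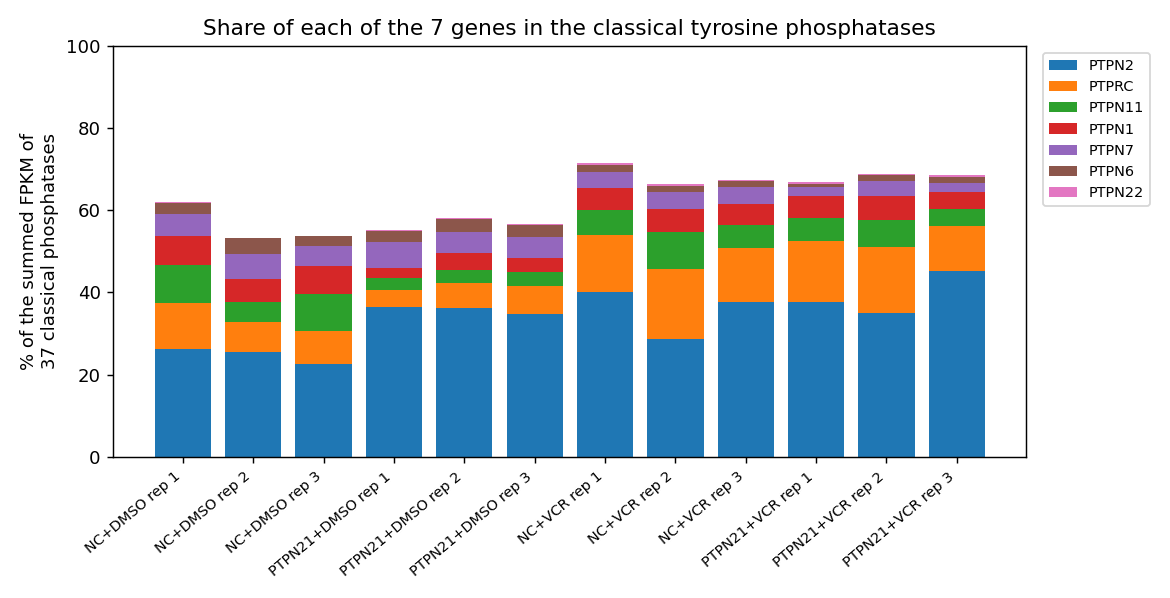
Percent of the summed FPKM of 37 classical tyrosine phosphatase genes (vertical axis, from 0) taken by each of the 7 genes in each of the 12 libraries, stacked. The stacks of the 6 DMSO libraries end at or below 62.0% and those of the 6 VCR libraries at or above 66.3%.

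Of the other 30 phosphatases, 12 were tested. With VCR in NC cells 4 were called, beside 36.2% of all genes, with PTPRF higher (0.68) and PTPN18, PTPN23 (-1.03) and PTPRS (-0.97) lower. In PTPN21 cells 3 were called, beside 28.5% of all genes, PTPRF (0.94), PTPN18 and PTPRS (-0.65). The count in NC cells was 1 with a minimum of 5 FPKM, beside 2858 of 6675 genes. It was 6 under median ratio scaling or quantile normalization, beside 3057 and 2933 of 11591 genes. That in PTPN21 cells was 1 with a minimum of 5 (2558 of 6675 genes) and without replicate 2 (2354 of 11619) or 3 (2527 of 11611) of PTPN21+VCR. PTPRF had a mean of 1.002 FPKM over the 12 libraries and reached the minimum only through the VCR libraries, at 1.07 to 2.01 FPKM against 0.267 to 0.615 in the DMSO libraries, so its calls support nothing. With PTPN21 in DMSO 2 were called, beside 6.34% of all genes. These were PTPN21 itself, higher by 3.20, and PTPN12, which acts on focal adhesion and cytoskeletal proteins, lower by 0.92 (limma adjusted p = 0.0118). PTPN21 reached the minimum only through the libraries that overexpressed it, so its calls were fixed by the design and support nothing. PTPN12 measured 20.6, 17.3 and 25.2 FPKM in NC+DMSO and 9.57, 10.9 and 11.02 in PTPN21+DMSO, so that it was low in the same group as PTPRC, PTPN11 and PTPN1. Under VCR the 1 called, beside 1.82% of all genes, was again the overexpressed PTPN21, at 2.29.

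The known substrates and partners of the 7 enzymes numbered 43, of which 21 were tested. With VCR in NC cells 13 of 21 (61.9%) were called, 2 higher and 11 lower, beside 36.2% of all genes. In PTPN21 cells 7 (33.3%) were called, 2 higher and 5 lower, beside 28.5% of all genes. The median log2 fold change of the 21 was -0.69 and -0.19, beside -0.36 and -0.17 over all genes. With PTPN21 there were 2 calls in DMSO (9.52%), beside 6.34% of all genes. There was none under VCR, beside 1.82% of all genes, and none in the interaction, beside 0.129%. The larger count depended on scale and on single libraries, and the calls over all genes moved too. It was 5 of 21 under either median ratio scaling or quantile normalization, beside 3057 and 2933 of 11591 genes. It was 6 of 37 without a minimum (3669 of 28170 genes) and 7 of 22 when only the groups compared were fitted (2626 of 11675). It was 6 of 21 without replicate 3 of NC+DMSO (3198 of 11441) and 7 of 21 without replicate 2 of NC+VCR (3552 of 11655). In PTPN21 cells the count was 4 of 21 under both scalings, beside 2995 and 3190 of 11591 genes. It also was 4 without replicate 2 (2464 of 11571 genes) or 3 (2390 of 11576) of PTPN21+DMSO or replicate 3 of PTPN21+VCR (2527 of 11611).

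The JAK and STAT genes and INSR, substrates of PTPN1 and PTPN2, gave 7 calls among 8 tested with VCR in NC cells, beside 36.2% of all genes, and 4 in PTPN21 cells, beside 28.5%. The count in NC cells was 3 without a minimum, under median ratio scaling or quantile normalization, and without replicate 3 of NC+DMSO. Calls over all genes were then 3669 of 28170, 3057 and 2933 of 11591, and 3198 of 11441, in that order. JAK1, the kinase shared by many cytokine receptors, rose in both, by 0.88 in NC cells (limma adjusted p = 0.0155) and 1.08 in PTPN21 cells (limma adjusted p = 0.00639). Its FPKM went from 3.86 ± 1.36 to 7.72 ± 0.246 and from 2.64 ± 0.903 to 6.55 ± 0.735 (mean ± SD, n = 3). Among the falls in NC cells were those of the STAT transcription factor genes STAT5A (-2.28, adjusted p = 0.0131 in limma) and STAT6 (-1.12, adjusted p = 0.0177). The STAT5A fall had a standard error of 0.615, and its call was lost without a minimum and in 2 of 12 fits that left out a library. That of STAT6 was lost in 3 of 10 other settings and 2 of those 12 fits. The falls in PTPN21 cells were STAT3 (-1.31, adjusted p = 0.00220 in limma), STAT5B (-0.76, adjusted p = 0.00472) and the kinase TYK2 (-0.73, adjusted p = 0.0277). The TYK2 call was lost in 2 of 9 other settings and 4 of 12 fits that left out a library. STAT3, STAT5B and TYK2 were also called lower in NC cells, by -0.80, -0.63 and -0.66. No gene of this list passed in the interaction. JAK3 and INSR did not reach the minimum, at no more than 0.0827 and 0.229 FPKM.

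Docking partners of PTPN6 and PTPN11 numbered 15, of which 5 reached the minimum and were tested. The inhibitory receptor gene BTLA, the receptor CD5 and the adaptor SIT1 were listed at 0 in 12 libraries, and PDCD1, which encodes PD-1, reached at most 0.198 FPKM. The tested ones encode proteins that link receptors to RAS. With VCR in NC cells 4 of them were called lower, GAB2 (-1.01), GAB3 (-1.01), GRB2 (-0.73) and SHC1 (-0.72, limma adjusted p = 0.0499), beside 36.2% of all genes. None of these 4 was called without a minimum, under median ratio scaling or quantile normalization, with only the groups compared, or without replicate 2 of NC+VCR. Calls over all genes were then 3669 of 28170, 3057 and 2933 of 11591, 2626 of 11675 and 3552 of 11655, in that order. Of the 4, 1 was called without replicate 1 or 3 of NC+DMSO, beside 3399 of 11559 and 3198 of 11441 genes. In PTPN21 cells SHC1 alone was called (-0.83, limma adjusted p = 0.0345), beside 28.5% of all genes, and its call was lost without replicate 2 or 3 of PTPN21+DMSO or replicate 1 or 3 of PTPN21+VCR, without a minimum and under both of these scalings. GAB2, a docking protein for PTPN11, also was lower with PTPN21 in DMSO (-1.24, limma adjusted p = 0.0411), from 12.1, 8.75 and 22.6 FPKM to 5.15, 7.03 and 3.64. That call was lost in 6 of 10 other settings, the replicate block among them, and in 8 of 12 fits that left out a library.

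The MAP kinases on which PTPN7 acts gave no call among 3 tested, beside 36.2% of all genes with VCR in NC cells and 28.5% in PTPN21 cells. MAPK14, which encodes p38 alpha, had log2 fold changes with VCR of -0.81 in NC cells (limma adjusted p = 0.0607) and 0.25 in PTPN21 cells (limma adjusted p = 0.594). With an unadjusted p under 0.05, for which the share of all genes was not counted, there were 2 in NC cells and 0 in PTPN21 cells. Under TPM scaling 2 were called with VCR in NC cells, beside 4553 of 11591 genes. Without a minimum 1 was called in PTPN21 cells, beside 2787 of 28170 genes.

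Of 14 T cell receptor kinases, adaptors and partners, 5 were tested. LCK, on which PTPRC and PTPN22 act, and the CSK anchor PAG1 were at 0 in 12 of 12 libraries, and ZAP70 and LAT stayed at or below 0.796 FPKM. The related kinase FYN stood at 13.4 to 35.1 FPKM and was not called. CSK, the kinase partner of PTPN22, fell with VCR by 1.67 in NC cells (limma adjusted p = 0.00151) and by 0.87 in PTPN21 cells (limma adjusted p = 0.0492). The latter call was lost in 7 of 10 other settings and 9 of 12 fits that left out a library. LGALS1, a lectin that binds CD45 at the cell surface, rose with VCR by 3.10 in NC cells (limma adjusted p = 6.68e-08) and 2.21 in PTPN21 cells (limma adjusted p = 1.17e-06), and with PTPN21 in DMSO by 1.14 (limma adjusted p = 0.00191). Its 3 libraries ran from 24.1 to 28.8 FPKM in NC+DMSO, from 52.7 to 72.7 in PTPN21+DMSO, from 214.7 to 248.6 in NC+VCR and from 270.1 to 295.3 in PTPN21+VCR, and no groups overlapped. PTPRCAP, a protein bound to CD45, was at 0 in 10 of 12 libraries.

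**Figure D4:**
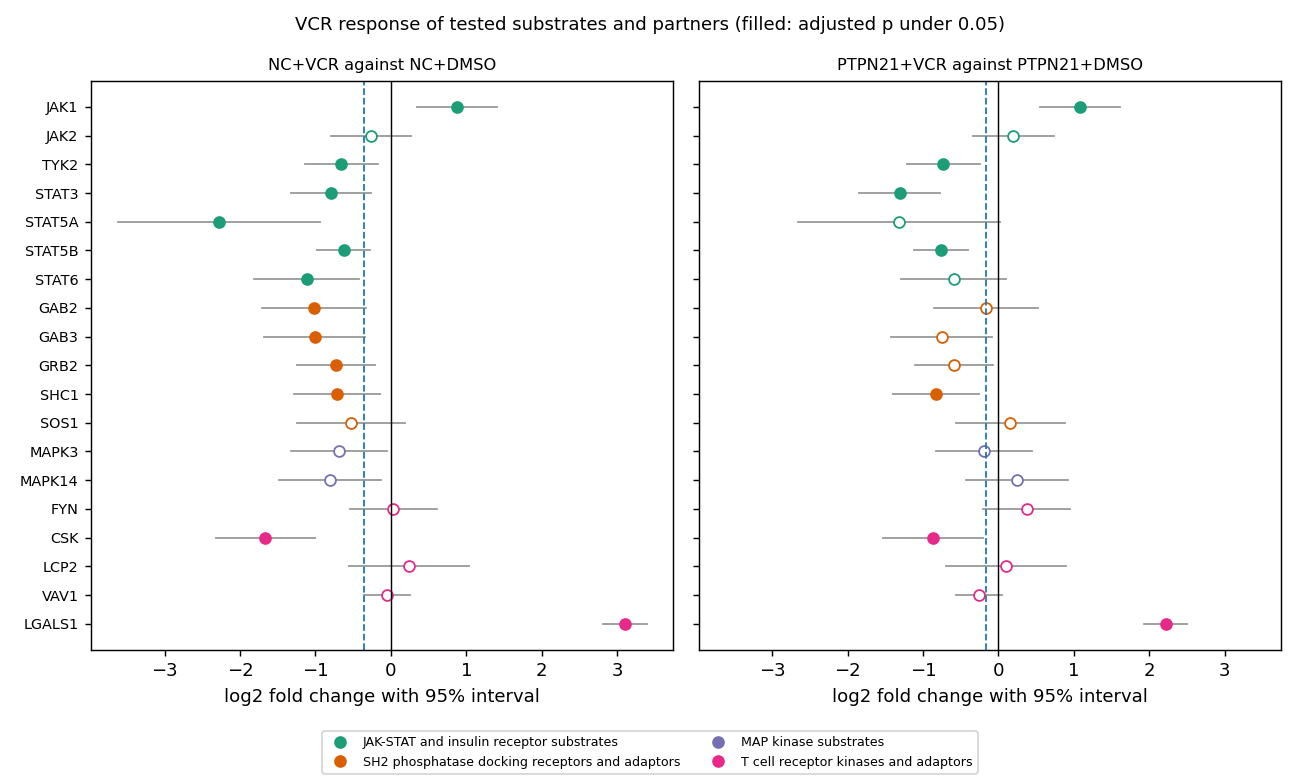
Log2 fold change with VCR (horizontal axis, with 95% intervals from limma) of the tested substrates and partners that are reported here, in NC cells on the left and PTPN21 cells on the right, coloured by list, where filled points have an adjusted p under 0.05 and the dashed line is the median of all tested genes. LGALS1 at 3.10 and 2.21 and JAK1 at 0.88 and 1.08 are the 2 called higher, and other filled points lie left of 0.

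For each phosphatase the tested genes most alike over the 12 libraries were found by Pearson's r of log2(FPKM + 1), as a description, since the libraries share groups and scaling. They were LCP1 (0.983) and POLR2B (0.981) for PTPRC, GRK6 (0.977) and RAB8A (0.962) for PTPN6, ARRDC3 (0.978) and STAG2 (0.967) for PTPN11, and TUBB2BP1 (0.937) and C9orf40 (0.919) for PTPN22. For PTPN1 they were HNRNPA2B1 (0.954) and UBP1 (0.953), for PTPN7 CHD1 (0.949) and SAMD1 (0.943), and for PTPN2 ABTB1 (0.875) and ATXN1 (0.874). None of these 14 genes was another of the 7 phosphatases.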

How the data were processed

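RNA from 12 libraries was sequenced and processed for the authors by an external company, and the authors deposited 1 table of FPKM for 60671 genes. The processing notes name fastp, Bowtie2 and the build mm10, although the identifiers are human Ensembl IDs. The counting program and annotation are not given in the sources used here. Of the IDs, 58453 (96.3%) were in GENCODE 29 (GRCh38), which gave positions. Promoters came from RefSeq.

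Groups came from the labels. log2(FPKM + 1) of 11591 genes, those averaging at least 1 FPKM, was fitted with limma 3.58.1 in R 4.3.3, with an intensity trend, as 1 model of the 4 group means, and 5 comparisons were adjusted by Benjamini-Hochberg at 0.05. The fit was tested on simulated data. The 7 genes and all lists were chosen with earlier results of these data known. The 7 genes are named throughout, and from each list the 3 largest rises and the 3 largest falls past the threshold, other list genes only where stated as under the minimum, not called or counted. Some list genes that were tested and counted are not reported by name. Fragment numbers were estimated from values within 0.1 of a whole step. Between 31.2% and 48.7% of the low values were, and chance gives 20% at a single fixed depth. The depth with the highest share was taken for each library, so 20% is not the chance level of that highest share. Alternatives were a pseudocount of 0.1, no minimum, a minimum of 5, TPM, median ratio and quantile scaling, robust moderation, no trend, a replicate block, only the groups compared and leaving out each library. Replicates correlated at 0.939 to 0.976. Tables were made with pandas 2.3.3 and numpy 2.4.6 in Python 3.11.15 and plots with matplotlib 3.10.9.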

Additional observations from a re-analysis of the deposited data

Results flagged for a closer look

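PTPN1 moved in opposite directions with VCR in the NC and PTPN21 cells, lower in every NC+VCR library than in any NC+DMSO library and higher in every PTPN21+VCR library than in any PTPN21+DMSO library. Neither move passed the threshold (limma adjusted p = 0.0916 and 0.0699), and groups did not overlap for 44.1% and 50.4% of all genes. Under median ratio scaling the fall in NC cells was -0.13 (limma adjusted p = 0.648). The difference between the responses was 1.08 on the log2 scale. The interaction tested in limma had an adjusted p of 0.191, and so did not pass. Over the other settings the adjusted p was 0.147 to 0.320, and over the fits that left out a library 0.116 to 0.387.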

How the results depend on the processing

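Of the 7 phosphatases, the number called with VCR in NC cells was 2. It was 1 without a minimum, with a minimum of 5, at which PTPN6 is not tested, under quantile normalization, where it was PTPRC, higher, and with only the groups compared. It was 3 under median ratio scaling, with PTPN6 lower and PTPN2 and PTPRC higher, and 1 to 2 when a library was left out. It was 1 without replicate 3 of NC+DMSO or replicate 1 or 3 of NC+VCR. In PTPN21 cells the number was 3, 5 under median ratio scaling and quantile normalization, 2 with a minimum of 5 and 4 with only the groups compared. It was 3 to 5 when a library was left out, with 5 without replicate 3 of NC+DMSO. With PTPN21 in DMSO it was 3, but 1 without a minimum, 1 with the replicate block and 0 with only the groups compared. It was 0 to 3 when a library was left out, with 0 without replicate 3 of NC+DMSO or replicate 1 of PTPN21+DMSO, and 1 without replicate 1 of NC+DMSO or replicate 3 of PTPN21+DMSO. Over all genes the main fit called 4192, 3308 and 735 of 11591 in these 3 comparisons. In the same order, 3669, 2787 and 177 of 28170 were called without a minimum and 2858, 2558 and 949 of 6675 with a minimum of 5. Of 11591 genes, 3057, 2995 and 546 were called under median ratio scaling and 2933, 3190 and 674 under quantile normalization. With the replicate block they were 3796, 2956 and 242. With only the groups compared they were 2626 of 11675, 4170 of 11423 and 43 of 11894. For the 7 phosphatases, the counts of 0 for PTPN21+VCR against NC+VCR and for the interaction held in all settings. The cause of the differences between settings was not tested.

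The replicate numbers did not pair the libraries: over 18 pairs with the same number, deviations from the group means correlated at -0.145 to 0.0583. The replicate block left the other 4 counts of the phosphatases at 2, 3, 0 and 0.

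PTPN6 in the interaction turned to 0.063 under TPM scaling and ranged from -0.14 to 0.19 when a library was left out, and PTPN2 there from -0.33 to 0.024. For PTPN21+VCR against NC+VCR these ranges were -0.17 to 0.010 for PTPN1, -0.076 to 0.28 for PTPN2 and -0.19 to 0.040 for PTPRC. Of the 294 other values of the 7 genes under the settings that kept every library, 270 kept their direction and side of the threshold, 15 lost a call and 8 gained one. Of 360 values with a library left out, 323 were unaltered in this way, 21 lost a call, 6 gained one and 10 turned. Of 270 and 324 such values of the other named genes, 229 and 278 were unaltered, 41 and 46 lost their call and none turned. Many of these values could not turn. Settings that alter only the minimum, the spread or libraries outside a comparison leave the fold change as it was. PTPN22 had no main test, so its values were compared by size only and were equal by construction. FPKM gives no depth.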
